A study of Mus musculus with 18 samples.

Results

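The data described here are the 6 RNA-seq libraries of mice that received recombinant IL-13 (rIL-13) after spinal cord injury (SCI), 3 of microglia and 3 of macrophages, out of 18 libraries in the series. They were chosen by the labels alone, and both cell types were sorted from the same spinal cord of mice 5, 6 and 7, so that each microglia library was set against the macrophages of its own mouse. All genes entered, and 13906 of the 53465 annotated genes had enough counts to be tested. The animals were female C57BL/6J mice of 8 to 10 weeks with a contusion of the thoracic cord, which were injected with 100 ng of rIL-13 into the injured cord 48 h after SCI, and the cells were collected 24 h later. Microglia were the CD45low, CD11b+, F4/80+ events and macrophages the CD45high, CD11b+, F4/80+ events, sorted after removal of myelin with magnetic beads. The gates rest on those 3 proteins and carry no lineage tracing, so a cell was assigned by its level of CD45. Mice 1, 2 and 3, injured in the same way and injected with PBS, and mice 8, 9 and 10, injected with 100 ng of rIL-4, are used for comparison.

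Microglia are the resident macrophages of the cord parenchyma. They derive from yolk sac progenitors and are set apart from other macrophages by genes such as Tmem119, P2ry12 and Sall1. After a contusion, blood monocytes enter the lesion and become macrophages, which keep genes of their monocyte origin and take up the debris of myelin and dead cells. IL-13 binds the receptor pair IL-13Rα1 and IL-4Rα, which signals through the kinases JAK1, TYK2 and JAK2 to the transcription factor STAT6, and in mouse macrophages this pathway is known for raising the genes of type 2, or alternative, activation. IL-13Rα2 binds IL-13 with high affinity and is known mainly as a decoy.

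The 6 libraries held between 35961305 and 41960631 counts, and 14130 to 14583 genes reached 10 counts in microglia against 12532 to 13093 in macrophages. Marker genes of other cells of the cord differed between the sorted populations, and they are given before the other results. Normalised read counts, here counts scaled for library size, are listed in the order of mice 5, 6 and 7 throughout. The 12 markers of fibroblasts and pericytes summed to 78276, 343207 and 53369 in microglia and to 780.3, 653 and 603 in macrophages. The lowest microglia library was thus far above the highest macrophage library, and mouse 6 had the most. For the 10 endothelial markers the sums were 104259, 89087 and 162644 in microglia and 5813, 8586 and 7438 in macrophages. The 12 neutrophil markers lay on the other side, with 14924, 6574 and 6762 in microglia and 26661, 147655 and 26275 in macrophages, and again mouse 6 stood out, now in its macrophages. Of the 12 lymphocyte markers none reached the filter on low counts, Cd3d, Cd3e, Gzmb and Ncr1 were at 0 in all 6 libraries, and the sums were 35.0, 0.855 and 70.9 and 9.01, 28.3 and 2.17. In a bulk library, fewer cells of a type and less RNA per cell cannot be told apart.

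**Figure D1:**
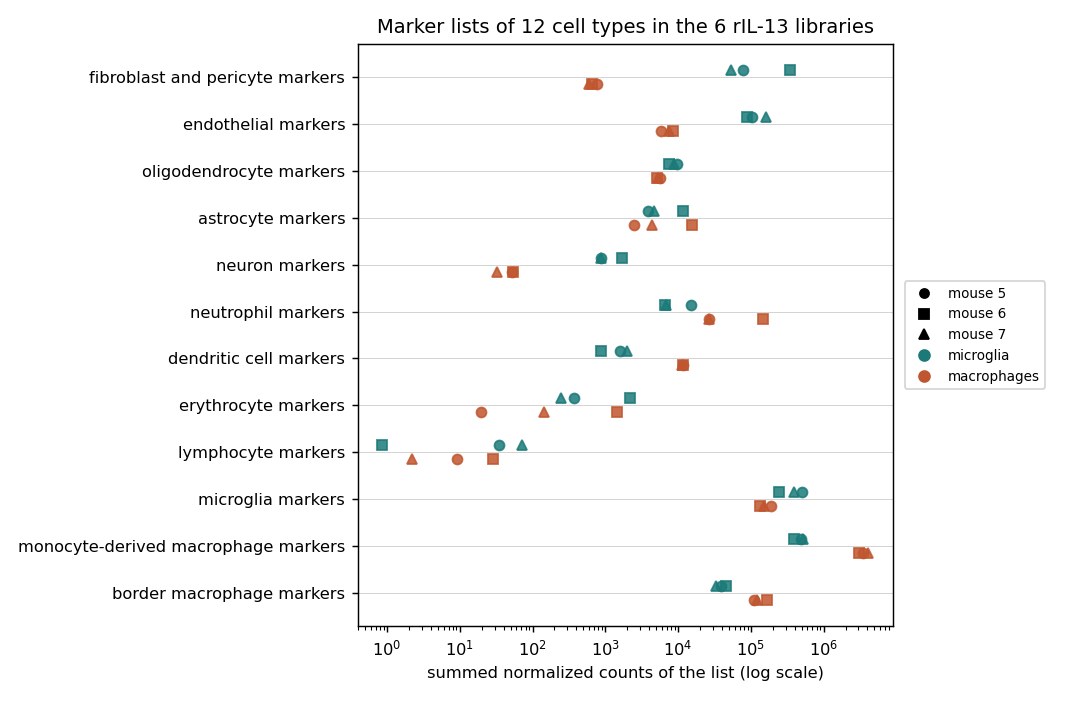
Summed normalised read counts of 12 marker lists on a log axis, 1 point for each of the 6 rIL-13 libraries, with shape for the mouse and colour for the cell type. The fibroblast and pericyte markers run from 53369 to 343207 in microglia and from 603 to 780 in macrophages, and the monocyte-derived macrophage markers lie higher in macrophages in all 3 mice.

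Microglia and macrophages differed widely after rIL-13. edgeR's quasi-likelihood test, paired by mouse, called 3538 of 13906 genes at an adjusted p below 0.05, 2146 of them higher in microglia (15.4% of the genes tested) and 1392 higher in macrophages (10.0%). Differences in favour of the microglia libraries were larger in size, with a median log2 fold change of 3.82 among the called genes against -1.24 among those higher in macrophages, while the median over all genes tested was -0.03. The genes higher in microglia include markers of fibroblasts and pericytes and of endothelium. The medians of those lists were 9.14 and 7.03, against 1.92 for the microglia markers. The part of those cells in the larger size was not tested. Of the called genes, 3535 had all 3 mice on the side of the call. A test paired on the same mice favours such genes, so this is no separate check. No count was found in any macrophage library for 213 of the genes higher in microglia, and 30 of the genes higher in macrophages had no count in microglia. The size of these sets depended on mouse 7, without which 1189 genes were higher in microglia and 515 in macrophages. Counts of list members given below are to be set beside the shares of all genes, 15.4% higher in microglia and 10.0% higher in macrophages. Fold changes below are log2 values of microglia over macrophages with the SE of the test (n = 3 mice), and a positive value means more in microglia.

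**Figure D2:**
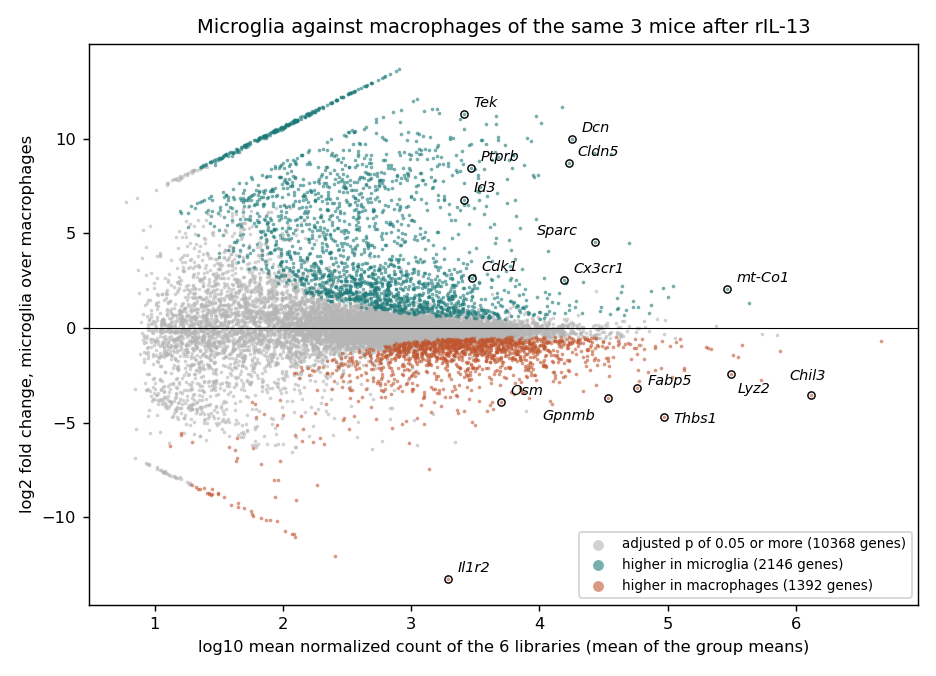
Log2 fold change of microglia over macrophages against the log10 mean normalised read count for the 13906 genes tested after rIL-13. Coloured points passed an adjusted p of 0.05 (2146 higher in microglia, 1392 higher in macrophages), circles mark genes named in the text, and the straight rows of points at the upper and lower left are genes with no count in one cell type.

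The genes used for the gates checked the labels. Ptprc, which encodes CD45, had 4896, 3903 and 3368 normalised read counts in microglia and 8005, 9934 and 9145 in macrophages. Its level was higher in the macrophages of each mouse, by 2.29-fold (adjusted p = 0.00944, and 0.0747 without mouse 7). Itgam, which encodes CD11b, had 15209.5, 9582 and 10028 in microglia and 27490.4, 40368 and 28925 in macrophages (adjusted p = 0.00969, and 0.0574 without mouse 7). Adgre1, which encodes F4/80, had 23359.8, 13904 and 20236 in microglia and 29865, 19552 and 27747 in macrophages. Its ranges overlapped, but in each mouse the macrophages had more, and the paired test called it (-0.46 ± 0.12, adjusted p = 0.0406), a call lost under 5 of 9 alternatives (0.121 without mouse 5 and 0.284 without mouse 7). All 3 genes were well expressed in both populations.

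Of 20 microglia markers, all measured, 14 were higher in microglia, 2 were higher in macrophages and 4 did not pass the test, with a median log2 fold change of 1.92. Sparc (ENSMUSG00000018593.13, chromosome 11 from 55394500 to 55423183), which encodes a secreted matricellular protein, had 52864, 58130.3 and 45479 normalised read counts in microglia and 2952, 2106 and 1682 in macrophages. It was 23.3-fold higher in microglia (4.54 ± 0.19, adjusted p = 2.05e-04). Sparc is also expressed by endothelial cells and fibroblasts, whose markers were higher in the same libraries, and the part of these cells in its level was not tested. For the transmembrane gene Tmem119 (ENSMUSG00000054675.5, chromosome 5 from 113793729 to 113800516) the microglia had 15399, 5765 and 10856 and the macrophages 2636, 1903 and 1884, a 4.59-fold difference (adjusted p = 0.00244). Cx3cr1, the receptor of the neuronal chemokine fractalkine, had 39618, 12879.7 and 28824 in microglia and 5489, 3427 and 3783 in macrophages. The purinergic receptor gene P2ry12 had 10373, 3947 and 7981 and 2212, 2071 and 1421. For these genes all microglia libraries lay above all macrophage libraries, and within each gene mouse 6 had the lowest level in microglia except for Sparc. P2ry12 passed the test (adjusted p = 0.0123) but not without mouse 7 (adjusted p = 0.0639). Sall1, a transcription factor of microglial identity, was 8.79-fold higher, Gpr34 6.38-fold and Fcrls 5.17-fold, with adjusted p between 6.08e-04 and 0.00132. Tgfbr1 and P2ry6 were the list's members higher in macrophages, by 1.94-fold and 2.27-fold, and the call of Tgfbr1 was lost without mouse 7 (adjusted p = 0.0559) and without the pairing (adjusted p = 0.398). Csf1r, the receptor that microglia and macrophages both need, had 102888, 42302 and 84554 in microglia and 56165, 48539.9 and 60368 in macrophages, which overlapped (adjusted p = 0.297, and 0.027 without mouse 6). Without mouse 7, 10 of the 20 markers were higher in microglia, and 17 without mouse 6.

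Macrophage identity ran the other way with fewer exceptions. Among 20 markers of monocyte-derived macrophages 18 were higher in macrophages, 0 were higher in microglia and 2 did not pass, with a median of -2.69. The call count stayed between 17 and 19 when any of the 3 mice was left out. Chil3 (ENSMUSG00000040809.10, chromosome 3 from 106147554 to 106167564), which encodes the chitinase-like protein Ym1 and shares sequence with Chil4, had 182026, 192356 and 270796 normalised read counts in microglia and 2179770, 2161560 and 2934170 in macrophages. The difference was 11.6-fold (-3.53 ± 0.10, adjusted p = 1.23e-04), and mice 5 and 6 were nearly equal in both cell types. Lysozyme (Lyz2, ENSMUSG00000069516.8, chromosome 10 from 117277331 to 117282321) had 154235, 51110.1 and 99872 in microglia and 767272, 278092 and 519579 in macrophages, and the macrophages of each mouse exceeded its microglia. Galectin 3 (Lgals3, ENSMUSG00000050335.17, chromosome 14 from 47367751 to 47386160) had 38145, 29530.1 and 32305 and 163101, 124720 and 144379. The receptors of monocyte recruitment and adhesion followed, with Ccr2, the receptor of CCL2, at -3.29 ± 0.42 and Cd44 at -2.31 ± 0.14. Ly6c2, a surface gene of inflammatory monocytes with the near-identical copy Ly6c1, was at -4.35 ± 0.30, and the haptoglobin gene Hp at -4.47 ± 0.30. The adjusted p of these 4 genes was between 4.87e-04 and 0.00413.

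To show the regulatory sequence beside the identity markers with the firmest calls, promoters were taken for the 3 microglia markers and the 3 monocyte-derived markers with the lowest p. RefSeq held a promoter for 5 of the 6 (not Gpr34), each with 250 bases before and 50 after the start site listed on GRCm38.p6. Those of Sparc (chr11:55420031-55420330, minus strand), Chil3 (chr3:106167515-106167814, minus strand) and Lgals3 (chr14:47373610-47373909, plus strand) are shown 5′ to 3′.
Sparc: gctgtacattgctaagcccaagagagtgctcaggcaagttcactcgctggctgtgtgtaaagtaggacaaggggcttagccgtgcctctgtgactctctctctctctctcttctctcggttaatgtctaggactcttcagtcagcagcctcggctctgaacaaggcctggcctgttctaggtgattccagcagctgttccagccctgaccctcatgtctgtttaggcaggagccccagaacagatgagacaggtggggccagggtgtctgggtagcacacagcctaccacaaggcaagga
Chil3: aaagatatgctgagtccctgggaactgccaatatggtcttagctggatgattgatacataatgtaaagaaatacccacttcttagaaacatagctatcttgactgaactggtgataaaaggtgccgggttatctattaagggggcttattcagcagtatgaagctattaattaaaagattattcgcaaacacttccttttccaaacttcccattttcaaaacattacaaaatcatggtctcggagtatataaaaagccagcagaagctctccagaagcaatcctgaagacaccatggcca
Lgals3: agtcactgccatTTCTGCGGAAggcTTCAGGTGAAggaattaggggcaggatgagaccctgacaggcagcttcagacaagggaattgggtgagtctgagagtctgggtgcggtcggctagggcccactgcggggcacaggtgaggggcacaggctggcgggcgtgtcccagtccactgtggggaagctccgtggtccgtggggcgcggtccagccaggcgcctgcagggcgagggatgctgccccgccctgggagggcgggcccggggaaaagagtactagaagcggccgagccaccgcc
Capitals mark TTC and GAA separated by 4 bases, the spacing known for STAT6 sites, which reads the same way on both strands. It was found in 1 of the 5 promoters, that of Lgals3, at 238 and 225 bases before the start, and in 6.95% of 32851 RefSeq promoters of this length. The core GAGGAA of the myeloid factor PU.1, searched on both strands, was in 0 of the 5 and in 28.3% of all promoters. A match is a description of the letters and not a site, and its absence from these windows says nothing of the factor.

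Markers of macrophages at the borders of the nervous system were mostly on the side of the sorted macrophages. Of 10 genes 9 were tested, 6 were higher in macrophages, 1 was higher in microglia and 2 did not pass. The mannose receptor Mrc1 (ENSMUSG00000026712.3, chromosome 2 from 14229392 to 14332057), which type 2 cytokines also raise, had 4233, 9704 and 5517 normalised read counts in microglia and 39548, 57907 and 49883 in macrophages, with no overlap (-3.02 ± 0.18, adjusted p = 4.73e-04). Pf4 was at -2.42 ± 0.15, Ms4a7 at -2.71 ± 0.16 and the haemoglobin scavenger receptor Cd163 at -2.20 ± 0.26, all past the threshold. Lyve1, a hyaluronan receptor also found on lymphatic endothelium, was the exception with 828, 1226 and 1134 in microglia and 115, 419.6 and 28.2 in macrophages. Its adjusted p was 0.0349, and 0.0826 without mouse 5, 0.0523 without mouse 7 and 0.0616 without the pairing, each of which left no border marker called higher in microglia.

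The 10 genes with the lowest p among those higher in microglia were Dcn, Lox, Tek, Ptprb, Pcolce, Serpinh1, Egfl7, Cyp1b1, Serping1 and Adamts1. Decorin (Dcn, ENSMUSG00000019929.16, chromosome 10 from 97479609 to 97518143), a proteoglycan of collagen fibres, had 13699.5, 89029.5 and 5483 normalised read counts in microglia and 11.6, 91.6 and 5.43 in macrophages. The value of mouse 6 was the highest in both cell types, and the difference was 1004-fold (9.97 ± 0.20, adjusted p = 1.23e-04). Lox, which crosslinks collagen, had 2704, 21279 and 3812 in microglia and 1.29, 9.05 and 1.09 in macrophages. The angiopoietin receptor Tek (ENSMUSG00000006386.15, chromosome 4 from 94739289 to 94874976) had 3750.1, 4123 and 7633 in microglia but 5 counts in all in macrophages, a ratio of 2727 with a 95% exact interval of 1168 to 8400 that covers counting error only. Ptprb, the phosphatase of vascular endothelium, was at 8.43 ± 0.21, and Cldn5 (ENSMUSG00000041378.1), the tight junction gene of the blood-brain barrier, had 34246, 22518 and 44795 in microglia and 59.2, 87.1 and 82.5 in macrophages. All 12 fibroblast and pericyte markers and all 10 endothelial markers were higher in microglia, with medians of 9.14 and 7.03. Collagen genes were among the most abundant of them, with 24154, 116578 and 19988 counts of Col3a1 in microglia and 50.2, 55.4 and 83.6 in macrophages. A filter of at least 10 counts in every library left 4 of the 12 fibroblast and pericyte markers to test, the others having fewer counts in macrophages, and all 4 were called. Some markers of neural cells were higher in microglia too, where 15.4% of all genes tested were. They were 5 of 9 tested for oligodendrocytes (3 without mouse 6 or without mouse 7), 3 of 7 for astrocytes and 3 of 3 for neurons. Of the 8 neuron markers only those 3 had enough counts to be tested. A gene could pass the filter through 1 cell type alone. The sums for neurons were 877, 1696 and 881 in microglia and 52.8, 53.2 and 32.6 in macrophages, far below those of vessels. Those for astrocytes were 3876, 11816 and 4729.6 in microglia and 2458, 15691 and 4441 in macrophages, which overlapped, with more in the macrophages of mouse 6. Most of the macrophage sums was the list member Gja1, with 1846, 15082 and 3832 in macrophages and 1696, 5999 and 2083 in microglia. The overlap of the sums rests on this gene. Gja1 was called higher in macrophages without mouse 5 and by DESeq2's Wald test, which called 5 astrocyte markers higher in microglia. How these transcripts entered libraries gated on myeloid proteins was not tested.

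**Figure D3:**
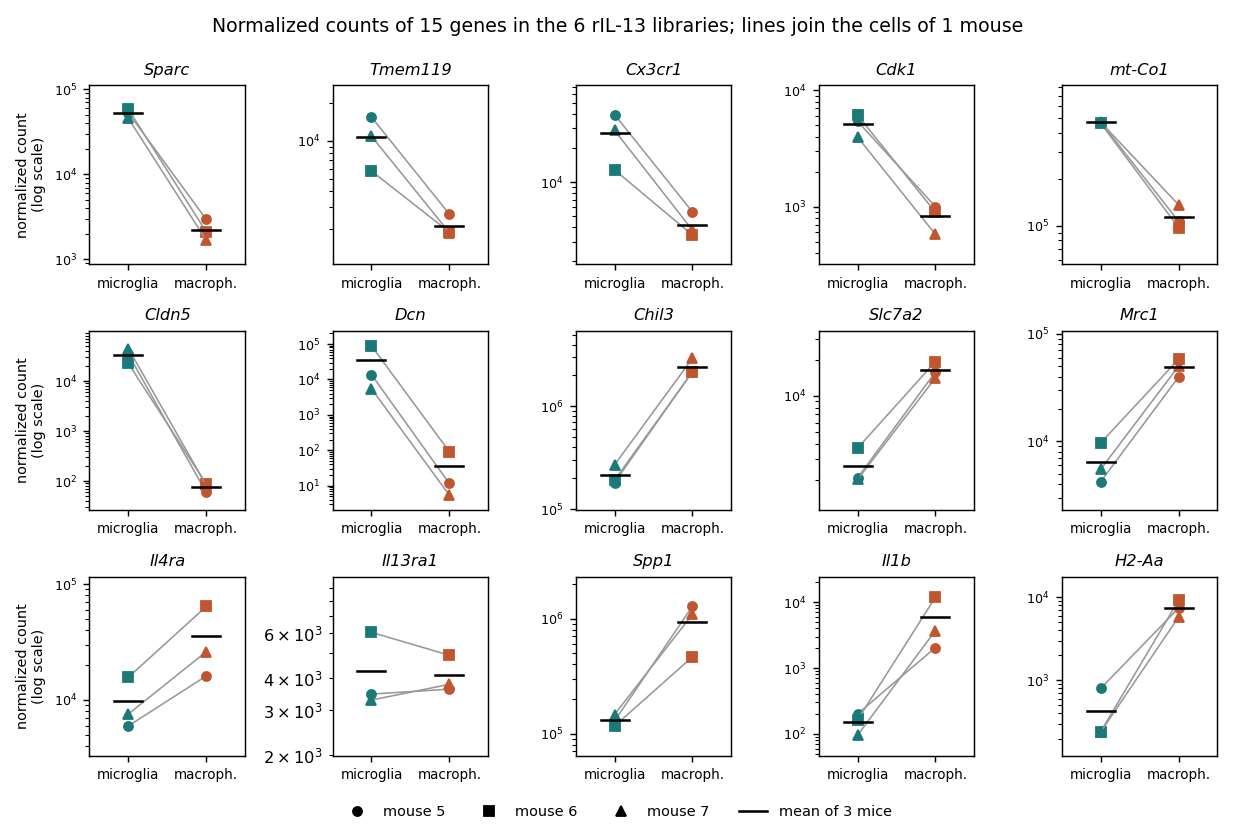
Normalised read counts of 15 genes on log axes that differ between panels. Each line joins the microglia and the macrophages of 1 mouse (circle mouse 5, square mouse 6, triangle mouse 7), bars are means of 3 mice, and the lines of Il13ra1 have no common direction while those of the other 14 genes do.

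Markers of neutrophils and dendritic cells were higher in macrophages where they passed the test. Of 12 neutrophil markers 4 were called higher in macrophages and 0 in microglia, while 8 did not pass, with a median of -4.48. Cxcr2, the chemokine receptor of neutrophils, had 0.921, 1.71 and 54.5 normalised read counts in microglia and 933, 6218 and 1079.6 in macrophages. S100a8, Mmp9 and Retnlg were the others, and for each of the 4 genes the macrophages of mouse 6 had the highest value. The call of S100a8 was lost without mouse 7 (adjusted p = 0.083). The gate on F4/80 was meant to leave granulocytes out, and a high purity was stated for the sort. Without mouse 5, 10 of the 12 were called, and DESeq2's Wald test also called 10. Of 6 dendritic cell markers tested, 4 were higher in macrophages (1 with at least 10 counts in every library). Cd209a had no count in microglia and 175, 325 and 127 in macrophages, at least 81.8-fold higher against a floor of 3 counts per library. Flt3, Ccr7 and Cd24a were the others. The 2 members that did not pass lay on the other side without overlap, Zbtb46 at 1.80 ± 0.59 (adjusted p = 0.0782) and Itgae at 1.20 ± 1.12 (adjusted p = 0.494), and 1 member was called higher in microglia under 5 of 9 alternatives.

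The components of the IL-13 receptor were not alike in the cells. Il13ra1 (ENSMUSG00000017057.9, chromosome X from 36112110 to 36171259), the IL-13 binding chain, had 3462, 6042 and 3281 normalised read counts in microglia and 3619, 4916 and 3779.8 in macrophages. The cell types overlapped, and the difference of -0.02 ± 0.16 changed sign with the processing (adjusted p = 0.948). Il4ra (ENSMUSG00000030748.9, chromosome 7 from 125552120 to 125579474), the signalling chain shared with IL-4, had 5976, 15727 and 7568 in microglia and 16112, 64067 and 26095 in macrophages. Its macrophage level was 3.43-fold higher (-1.78 ± 0.16, adjusted p = 0.00144), with all 3 mice in the same direction and mouse 6 highest in both cell types. Il13ra2 (ENSMUSG00000031289.10, chromosome X from 147383476 to 147429192), the decoy receptor, had 128, 95.7 and 24.1 in microglia and 0 in each macrophage library. Microglia therefore exceeded macrophages at least 23.6-fold (adjusted p = 0.0358), a call that was lost without mouse 5 (adjusted p = 0.0862) or mouse 7 (0.0668). No count of Il13ra2 was found in PBS microglia or macrophages, while rIL-4 microglia had 0, 141 and 5.34. Fibroblasts are known to express Il13ra2, and the part of their RNA, whose markers summed to 53369 to 343207 in microglia and 603 to 780.3 in macrophages, was not tested.

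Of the 15 receptor and signalling genes of the pathway tested, receptor chains included, 1 was higher in microglia (Il13ra2), 5 were higher in macrophages (Il4ra, Stat6, Jak2, Socs3 and Tyk2) and 9 were not called, with a median of -0.56. Stat6, the transcription factor of the pathway, had 5685, 5801 and 7004 normalised read counts in microglia and 9346, 9857 and 12681 in macrophages. All macrophage libraries lay above all microglia libraries (-0.81 ± 0.13, adjusted p = 0.00917, and 0.108 without mouse 7). The kinase gene Jak2 was at -1.37 ± 0.25 and the feedback inhibitor Socs3 at -1.31 ± 0.25 (adjusted p = 0.0137 and 0.0144). The call of Jak2 was lost without the pairing by mouse (adjusted p = 0.0935) and that of Socs3 without mouse 7 (adjusted p = 0.0751). Tyk2 passed only with all 3 mice (-0.73 ± 0.17, adjusted p = 0.0303), its adjusted p being between 0.0526 and 0.146 when a mouse was left out. Il2rg, the common gamma chain, did not pass (-0.37 ± 0.17, adjusted p = 0.182). Without mouse 7, 3 of these genes were called higher in macrophages.

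Type 2 activation genes were higher in macrophages. Of 22 members, 16 were higher in macrophages, 0 in microglia and 6 did not pass, with a median of -2.76, and all 22 had a negative fold change. Slc7a2 (ENSMUSG00000031596.15, chromosome 8 from 40862396 to 40922308), a carrier of arginine, had 2075, 3671 and 2014 normalised read counts in microglia and 15807, 19311 and 14124 in macrophages, a 6.69-fold difference (adjusted p = 4.87e-04). The chemokine Ccl24 attracts eosinophils. Its level was 12388, 17319 and 11038 in microglia and 55287, 190983 and 70895 in macrophages. E-cadherin (Cdh1) was at -4.28 ± 0.31, the transcription factor Egr2 at -2.94 ± 0.27 and the chemokine Ccl6 at -2.33 ± 0.11. Retnla, which encodes the secreted protein RELMα, had 7017, 1558 and 1975 in microglia and 9707, 9421 and 4698 in macrophages. Its ranges overlapped, but each mouse had less in microglia. It did not pass (-1.46 ± 0.41, adjusted p = 0.0527), and passed under 6 of 9 alternatives, with adjusted p from 7.04e-04 by DESeq2's Wald test to 0.187 without the pairing. The number of members called higher in macrophages was between 12 (without mouse 7) and 17 when a mouse was left out.

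The same cell type difference was measured in other mice after PBS and after rIL-4, which gives values to set beside these. After PBS, where 23.5% of 14715 genes were higher in microglia and 16.7% higher in macrophages, 15 of 19 type 2 genes tested were higher in macrophages. After rIL-4, where the background was 11.2% and 9.31% of 13576 genes, 18 of 22 were higher in macrophages and 1 was higher in microglia. For Chil3 the log2 fold change was -4.69 after PBS, -3.53 after rIL-13 and -2.48 after rIL-4. Its mean in microglia was 5102 ± 4392 (SD, n = 3) after PBS, 215059 ± 48545 after rIL-13 and 687465 ± 201395 after rIL-4. For Mrc1 the log2 fold changes were -1.81, -3.02 and -2.30 in that order. Slc7a2 was level between the cells after PBS (-0.04), with 501, 1166 and 395 normalised read counts in microglia and 576, 556 and 690.0 in macrophages. It was lower in microglia after rIL-13 (-2.74) and after rIL-4 (-2.46). The test of the difference between rIL-13 and PBS did not pass for these 3 genes, with adjusted p of 0.419 for Chil3, 0.529 for Mrc1 and 0.166 for Slc7a2.

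**Figure D4:**
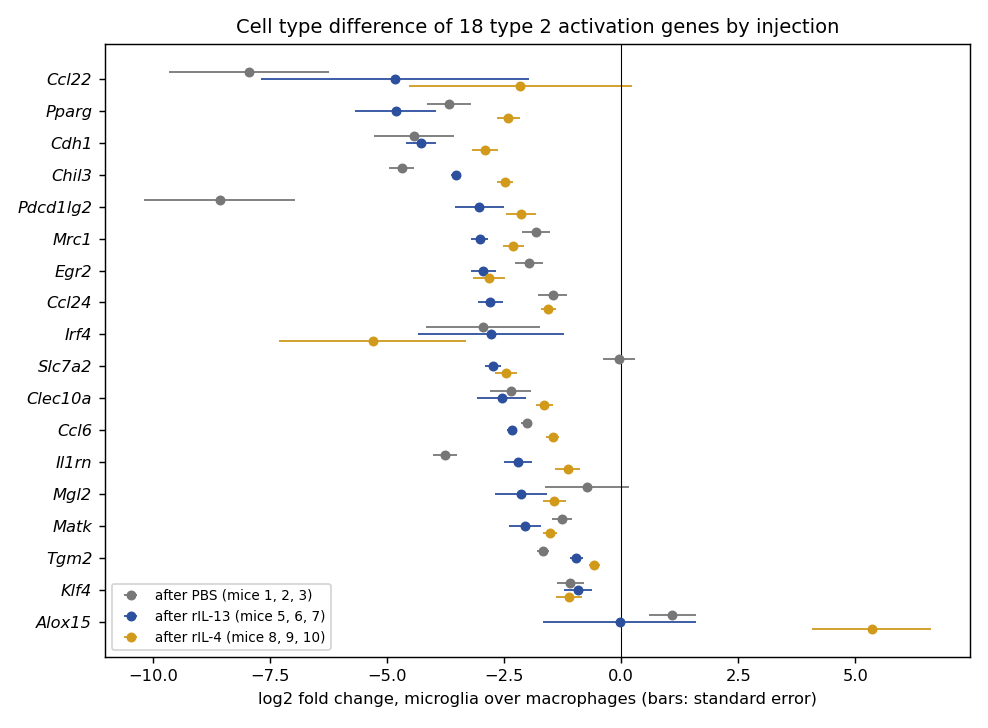
Log2 fold change of microglia over macrophages, with its SE, for 18 of the type 2 activation genes tested after PBS (grey), rIL-13 (blue) and rIL-4 (yellow), each from 3 mice of its own. Most points lie left of 0, which is higher in macrophages, and Slc7a2 is at -0.04 after PBS and at -2.74 after rIL-13.

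Inflammatory mediators and chemokines that passed the test were nearly all higher in macrophages. Of 17 mediators tested, 8 were higher in macrophages, 1 was higher in microglia and 8 did not pass, with a median of -1.29, and without mouse 7 the count was 5. The 1 member higher in microglia, Ptgs2, was lost under 7 of 9 alternatives. Il1b (ENSMUSG00000027398.13, chromosome 2 from 129364570 to 129371139) had 202, 164 and 95.8 normalised read counts in microglia and 2042, 11848 and 3703 in macrophages, with no overlap (-4.98 ± 0.62, adjusted p = 0.00383). The cytokine oncostatin M (Osm) was at -3.94 ± 0.23 and Tnf at -2.69 ± 0.36, while Cyba, a subunit of the NADPH oxidase, was at -1.68 ± 0.17. Il1r2, the decoy receptor of IL-1, had 1246, 8283 and 2193 in macrophages and a single count in the 3 microglia libraries, a ratio of 14140 with a 95% exact interval of 2537 to 558568. In macrophages, Il1b, Il1r2 and Osm were highest in mouse 6, as were the neutrophil markers, which summed to 26275 to 147655 in macrophages and 6574 to 14924 in microglia. Immediate early and sorting stress genes also stood higher in macrophages and were highest there in mouse 6, with sums of 100443, 212040 and 133823 against 35618, 28269.5 and 29466 in microglia. The part of either in the differences of mediators and chemokines was not tested.

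Of 15 chemokines tested 7 were higher in macrophages and 8 did not pass, with a median of -1.67. Ccl2 and Ccl7, both ligands of CCR2 that share sequence with other Ccl genes, were at -2.35 ± 0.14 and -2.31 ± 0.15. Those calls held without each mouse but not without the pairing (adjusted p = 0.0605 and 0.0529). Ccl2 had 1665, 8097 and 2542 normalised read counts in microglia and 8328, 43831 and 11705 in macrophages, so that mouse 6 was far above the others in both cell types. Ccl9 was at -2.24 ± 0.18 and the neutrophil attractant Cxcl2 at -4.06 ± 0.52. Among 11 chemokine receptors tested 7 were higher in macrophages (4 with at least 10 counts in every library) and 2 in microglia. Ccr1 was at -2.80 ± 0.19, Ccrl2, a presenter of chemerin, at -3.25 ± 0.28 and Cxcr4, the receptor of CXCL12, at -5.10 ± 0.57. The members higher in microglia were Cx3cr1 and Ackr3, a scavenger of CXCL12 that endothelial cells also express, with 1288, 3771 and 1378 in microglia and 238, 776 and 656 in macrophages.

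Complement genes were called on both sides. Of 16 tested, 7 were higher in microglia, 4 were higher in macrophages and 5 did not pass, with a median of 0.70. C1qa, a subunit of the protein that starts the classical pathway, had 82719, 37185 and 49770.3 normalised read counts in microglia and 34451, 23965 and 19946 in macrophages. C1qa and C1qc passed (1.04 ± 0.17 and 0.94 ± 0.15), but neither did so without mouse 7 (adjusted p = 0.0908 and 0.0974), nor did C1qa without the pairing (0.0517). C1qb did not pass (0.45 ± 0.13, adjusted p = 0.0563), but did under 4 of 9 alternatives. Serping1, which encodes the C1 inhibitor, had 5822, 28451 and 3391 in microglia and 6.44, 50.9 and 8.69 in macrophages (9.11 ± 0.28, adjusted p = 1.23e-04). It was highest in the microglia of mouse 6, where fibroblast and pericyte markers were highest too, and the part of those cells was not tested. The receptors C3ar1 and C5ar1 and properdin (Cfp), which stabilises the alternative convertase, were higher in macrophages at -1.03 ± 0.13, -1.98 ± 0.26 and -2.85 ± 0.26.

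MHC class II genes, which present antigen to helper T cells, were higher in macrophages where they passed the test. Of 11 genes 6 were higher in macrophages, 0 in microglia and 5 did not pass, with a median of -1.04. H2-Aa (ENSMUSG00000036594.14), an alpha chain, had 799, 242 and 239.8 normalised read counts in microglia and 7380.2, 9124 and 5741 in macrophages. The difference was 20.7-fold (adjusted p = 0.00199). Cd74, the invariant chain, was at -2.49 ± 0.28 and H2-Ab1 at -3.94 ± 0.62. Reads of H2 genes can be divided among near-identical copies. The 8 dendritic cell markers, of which 4 of the 6 tested were also higher in macrophages, summed to 862 to 1993 in microglia and 11216 to 11654 in macrophages, and their part was not tested.

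Among 17 phagocytic receptors and bridging proteins tested, 8 were higher in macrophages, 2 were higher in microglia and 7 did not pass (4 and 2 were called without mouse 7). The scavenger receptor Cd36 had 3979, 2332 and 5319.9 normalised read counts in microglia and 22165, 17197 and 28729.6 in macrophages, and Cd68 and Msr1 were at -1.39 ± 0.11 and -1.16 ± 0.13. The members higher in microglia were the bridging proteins of the TAM receptors, Pros1 at 2.31 ± 0.21 and Gas6 at 1.24 ± 0.17. Of 24 lysosomal genes 17 were higher in macrophages and 2 in microglia, with a median of -0.75. That count was 7 without mouse 7 and 9 without the pairing. Prosaposin (Psap) was at -2.13 ± 0.11, cathepsin B (Ctsb) at -1.44 ± 0.13 and the proton pump subunit Atp6v0d2 at -3.40 ± 0.16, and each of these held without any 1 mouse. Cathepsin F (Ctsf) was higher in microglia, with 4115, 2361 and 3044 in microglia and 708, 260.1 and 355 in macrophages.

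Lipid genes gave the same picture, with 12 of 21 tested higher in macrophages (7 without mouse 7), 1 higher in microglia and a median of -1.09. The count in microglia was 0 without mouse 7, 2 by DESeq2's Wald test and without the pairing, and 3 with all 18 libraries. Fabp5 (ENSMUSG00000027533.10, chromosome 3 from 10012548 to 10016607), a fatty acid binding protein, had 12972, 10442 and 11206 normalised read counts in microglia and 126819, 80530.5 and 105624 in macrophages, a 9.11-fold difference (adjusted p = 2.10e-04). Soat1, which esterifies cholesterol, was at -1.85 ± 0.12, the lipid droplet coat Plin2 at -1.54 ± 0.12 and the cholesterol exporter Abca1 at -1.60 ± 0.16. The iron storage gene Ftl1, one of the most abundant transcripts, had 219292, 152336 and 181154 in microglia and 639757, 432803 and 513392 in macrophages. Thbs1, which encodes the matrix protein thrombospondin 1, differed 26.2-fold (-4.71 ± 0.18), and the phosphatase Acp5 was at -3.44 ± 0.18.

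Genes that define disease-associated microglia in models of neurodegeneration were mostly not higher in microglia here. Of 30 genes 16 were higher in macrophages, 2 in microglia and 12 did not pass, with a median of -0.94. Osteopontin (Spp1, ENSMUSG00000029304.14, chromosome 5 from 104435118 to 104441050) had 128701, 116228 and 146484 normalised read counts in microglia and 1277920, 464185 and 1085600 in macrophages. Its macrophage level was 6.80-fold higher (adjusted p = 0.00159), and mouse 6 had the lowest. Gpnmb (ENSMUSG00000029816.10, chromosome 6 from 49036546 to 49070929), a membrane glycoprotein of lipid-laden macrophages, had 8153, 1176 and 4538 in microglia and 116501, 12236 and 62590.2 in macrophages. The levels spread widely among mice, but the paired difference was steady at -3.70 ± 0.16. Itgax was at -4.07 ± 0.62. The members higher in microglia were the cystatin Cst7 at 1.93 ± 0.25 and lipoprotein lipase (Lpl) at 1.17 ± 0.20, the latter with an adjusted p of 0.0838 without mouse 7. Trem2, the receptor on which this programme depends, did not pass (-0.31 ± 0.17, adjusted p = 0.254).

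Transcripts of energy metabolism, the subject of the study, differed between the cells in glycolysis and in the mitochondrial genome. The study measured metabolic rates in CD11b+ cells together and not in each cell type. Of 22 glycolysis genes 14 were higher in macrophages, 2 were higher in microglia and 6 did not pass, with a median of -0.88. The count in macrophages fell to 4 without mouse 7 and was 14 without either of the other mice. That in microglia was 4 without mouse 6 and 1 without mouse 7. Hexokinase 3 (Hk3) had 2805, 3138 and 2816 normalised read counts in microglia and 7624, 10299 and 7880.0 in macrophages, with no overlap (-1.58 ± 0.15). The lactate exporter Slc16a3 was at -2.08 ± 0.23 and the enzymes Aldoa and Eno1 at -1.01 ± 0.12 and -1.08 ± 0.14, the last pair with adjusted p of 0.0507 and 0.0504 without mouse 7. Ldhb, the lactate dehydrogenase chain of oxidative tissues, was higher in microglia, with 10728, 4277 and 6567 in microglia and 1724, 1012 and 761 in macrophages (2.58 ± 0.24). Slc2a1, the glucose transporter of the blood-brain barrier, had 45641, 20116 and 66054 in microglia and 6381, 17724 and 9304 in macrophages without overlap. It did not pass (1.97 ± 0.59, adjusted p = 0.0607), and passed under 4 of 9 alternatives, with adjusted p from 4.21e-04 without mouse 6 to 0.244 without mouse 7. It is an endothelial gene as well, and the endothelial marker sums were 89087 to 162644 in microglia and 5813 to 8586 in macrophages.

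All 13 protein genes of the mitochondrial genome had a positive fold change, and 10 were called higher in microglia, with a median of 1.93. They took 3.28% to 3.53% of the counts in microglia and 0.604% to 0.713% in macrophages. For mt-Co1 (ENSMUSG00000064351.1), a catalytic subunit of complex IV, the microglia had 472112, 464123 and 471498 normalised read counts and the macrophages 106705, 97083 and 136665. The difference was 4.10-fold (2.03 ± 0.13, adjusted p = 6.00e-04), and the microglia of the 3 mice were nearly equal. The complex I genes mt-Nd1 and mt-Nd4 were at 2.12 ± 0.12 and 2.22 ± 0.12, mt-Cytb of complex III at 2.21 ± 0.13 and the large ribosomal RNA mt-Rnr2 at 1.34 ± 0.18. Gm28437, a nuclear copy of mitochondrial sequence, was at 1.64 ± 0.11, and reads cannot be assigned with certainty between such copies. The nuclear genes of the respiratory chain did not follow. Of 74 tested, 71 did not pass, 3 were higher in macrophages and 0 in microglia, with a median of -0.21, and the 3 calls became 0 without mouse 5 or mouse 7, 1 without mouse 6, 1 without the pairing and 7 by DESeq2's Wald test.

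Proliferation genes were higher in microglia without exception. All 30 were higher in microglia, where 15.4% of all genes were, with fold changes from 0.85 to 2.81 and a median of 2.24, and 28 to 30 were called when a mouse was left out. The microglia and macrophage libraries of all 30 did not overlap, against 26.0% of all genes with microglia above macrophages. Cdk1 (ENSMUSG00000019942.13, chromosome 10 from 69335146 to 69352938), the kinase of mitotic entry, had 5412, 6114 and 3958 normalised read counts in microglia and 999, 893 and 577 in macrophages, a 6.21-fold difference (adjusted p = 5.27e-04). Mki67 had 3690.3, 2993 and 2144 and 1282, 619 and 728, Birc5 was at 2.46 ± 0.16, Top2a at 2.53 ± 0.19 and the replication gene Mcm7 at 2.04 ± 0.16. The median of this list was 2.32 after PBS and 3.31 after rIL-4, and all 30 were called in both. Dividing cells of other types would carry the same genes, and the part of the vessel and matrix cells whose markers were higher in the same libraries was not tested.

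Transcription factors fell on both sides, with 8 of 29 tested higher in microglia and 11 higher in macrophages (5 and 6 without mouse 7). Id3 (ENSMUSG00000007872.3, chromosome 4 from 136143497 to 136145755), an inhibitor of helix-loop-helix factors, had 3609, 8665 and 3197 normalised read counts in microglia and 39.9, 76.9 and 22.8 in macrophages, a 109-fold difference. Ets1 was at 4.16 ± 0.36. Both are also genes of endothelium, whose markers were higher in the same libraries. Mef2c, a factor of homeostatic microglia, was at 1.85 ± 0.23 and Sall1 at 3.14 ± 0.28. On the macrophage side were Bhlhe40 at -1.98 ± 0.17, Zeb2 at -1.47 ± 0.15 and Hif1a, the factor of the hypoxic response, at -1.69 ± 0.18. Hif1a had 10457, 9636 and 13508 in microglia and 28111, 41638 and 36767 in macrophages.

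**Figure D5:**
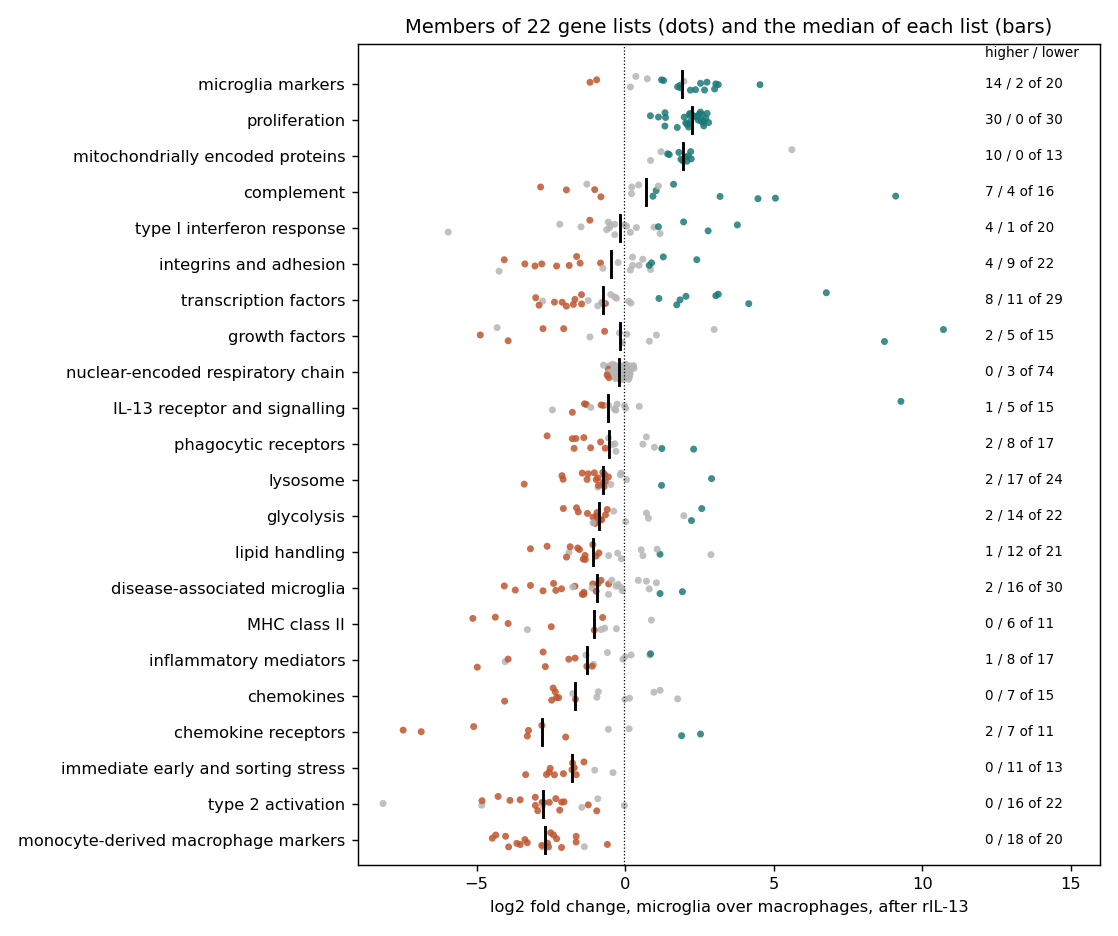
Log2 fold change of microglia over macrophages after rIL-13 for the tested members of 22 gene lists, with a bar at each list's median. Coloured dots passed an adjusted p of 0.05, and the right-hand column counts the members called higher in microglia and in macrophages among those tested, from 30 and 0 of 30 for proliferation to 0 and 18 of 20 for the monocyte-derived macrophage markers.

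The cell type difference after rIL-13 was largely shared with that in PBS mice, which are other animals. Of the genes tested in both, 1938 of 2094 genes higher in rIL-13 microglia were called in the same direction after PBS (92.6%), which were 65.8% of the 2944 PBS calls. Of 1383 genes higher in rIL-13 macrophages 1200 were shared (86.8%), or 49.5% of the 2424 PBS calls, and 3 genes were called in opposite directions. With rIL-4, 1279 of 1789 calls higher in microglia were shared (71.5%, and 85.4% of the rIL-4 calls) and 877 of 1386 calls higher in macrophages (63.3%, and 69.4%), with 0 in opposite directions.

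Whether the difference itself changed was tested by an interaction. Against PBS, 3 of 15886 genes passed (0.0189%), all with a lower microglia to macrophage ratio after rIL-13, and 0 passed with a higher ratio, where 1059 had an unadjusted p below 0.05 and DESeq2's Wald test called 213. Ccdc80 (ENSMUSG00000022665.14), which encodes a secreted matrix protein, had 1429.8, 1525 and 1927 normalised read counts in microglia and 98.2, 94.1 and 114 in macrophages after PBS. After rIL-13 it had 1118, 3439 and 1467 and 585, 2202 and 1174, so the macrophage level was higher and the cell types overlapped. Gja1 (ENSMUSG00000050953.10, chromosome 10 from 56377330 to 56402513), the gap junction protein connexin 43, had 2529.6, 4906 and 1687 in microglia and 217, 294 and 222 in macrophages after PBS, and 1696, 5999 and 2083 and 1846, 15082 and 3832 after rIL-13. Here too the macrophage libraries of the rIL-13 mice lay above all those of the PBS mice. After rIL-4 the log2 fold change was 0.15 for Ccdc80 and -1.06 for Gja1. The third gene was Il1r2, with 23.4, 94.0 and 22.9 in PBS microglia and 1335, 3045 and 1431 in PBS macrophages, beside the single count in rIL-13 microglia. None of the 3 calls held without mouse 1, with adjusted p of 0.0721 for Ccdc80, 0.117 for Gja1 and 0.0721 for Il1r2. Against rIL-4, edgeR called 0 of 15251 genes in either direction, with 975 at an unadjusted p below 0.05 and 211 called by DESeq2's Wald test.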

How the data were processed

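RNA was extracted with a micro column kit from microglia and macrophages sorted from each cord, and libraries were made by SMART-seq2, which has no molecular identifiers and does not mark strand, so PCR reads are not independent molecules and antisense or overlapping genes cannot be told apart. Per the submitters' processing notes and the study's methods, the authors mapped reads to GRCm38 with STAR 2.5.3a and quantified genes with RSEM 1.3.0, and they deposited its expected counts for 53465 genes in 18 libraries as whole numbers that were not normalized. Reads that fit near-identical copies are split between them by RSEM. The annotation release is not given in the sources used here. Positions were taken from GENCODE vM21 on GRCm38 for IDs that matched with their version (50604 of 53465), and promoters from RefSeq on GRCm38.p6.

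The main comparison used edgeR 4.0.16 (R 4.3.3) on the 6 rIL-13 libraries with filterByExpr, TMM normalization, the mouse as a block, the quasi-likelihood test and Benjamini-Hochberg adjustment over all genes tested, with a threshold of 0.05. SE is the absolute log2 fold change divided by the square root of F. The PBS and rIL-4 libraries were fitted in the same way, and interactions in 12 libraries. Normalised read counts are counts divided by DESeq2 1.42.0 size factors of all 18 libraries. The steps were tested on simulated data. The pairing comes from the mouse numbers in the labels, and deviations from the group mean correlated over 10191 genes by 0.155, 0.156 and 0.226 between the cells of mice 5, 6 and 7. p-values rest on the spread among 3 animals, with 2 residual degrees of freedom, and on 3.69 more on average borrowed from the spread of other genes. An exact test on pairs of 3 animals could not go below 0.25. The total count per library was 35961305 to 41960631 in rIL-13 mice, and intervals and floors of 3 counts cover counting error only.

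Genes named are the 10 with the lowest p and the 5 with the most counts in each direction at a log2 fold change of at least 1, up to 5 members of each of 32 lists with the lowest p plus the genes a list is named for, and genes past the threshold in an interaction. Some genes that this rule names are counted in their lists but not reported here. Members and lists were chosen with earlier results of these data known. Alternatives were DESeq2's Wald test, DESeq2 size factors, all 18 libraries, 2 other filters on low counts, no block, and leaving out each mouse.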

Additional observations from a re-analysis of the deposited data

Results flagged for a closer look

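In 3 genes the difference between microglia and macrophages after rIL-13 departed from that after PBS by edgeR's test of the interaction (3 mice in each group). The log2 value of the departure was -7.66 for Il1r2 (adjusted p = 0.00706), -3.32 for Ccdc80 (adjusted p = 0.00706) and -4.26 for Gja1 (adjusted p = 0.0182), each meaning a lower ratio of microglia to macrophages after rIL-13. Il1r2 rests on 1 count in the rIL-13 microglia libraries. For Ccdc80 and Gja1 it was the macrophage level that stood higher after rIL-13, with 585, 2202 and 1174 against 98.2, 94.1 and 114 normalised read counts of Ccdc80 and 1846, 15082 and 3832 against 217, 294 and 222 of Gja1, and the groups did not overlap. All 3 calls were lost without the replicate block, where the adjusted p was 0.215, 0.178 and 0.23. With all 18 libraries in the fit, Il1r2 (adjusted p = 0.444) and Ccdc80 (0.181) were lost and Gja1 was kept. Leaving out mouse 2 also ended the calls of Ccdc80 (0.0614) and Gja1 (0.065), mouse 6 that of Il1r2 (0.0528) and mouse 7 that of Gja1 (0.0879).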

How the results depend on the processing

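Between microglia and macrophages after rIL-13, the calls higher in microglia ranged from 1189 to 1939 when 1 mouse was left out, those higher in macrophages from 515 to 1356 and the total from 1704 to 3295, the lowest without mouse 7, and DESeq2's Wald test called 2168 higher in macrophages. Without the replicate block, that is without pairing by mouse, 2395 genes were higher in microglia and 1315 in macrophages, and 3192 of the 3538 paired calls were kept. Of 154 named genes that passed, 119 passed under every alternative that tested them, 31 were lost without mouse 7 and 0 reversed. Il13ra1, which did not pass, had a log2 fold change of 0.0562 with at least 10 counts in every library, 0.0218 without the replicate block and between -0.174 (without mouse 6) and 0.0850 (without mouse 7) with a mouse left out, 0.000692 being the value without mouse 5. After rIL-4, DESeq2 called 4247 genes (2062 higher in macrophages), and leaving out a mouse gave totals of 1496 to 1988, 918 to 1176 higher in microglia and 578 to 812 in macrophages. For the interaction against PBS, DESeq2 called 213 genes (102 positive, 111 negative), DESeq2 size factors 8 (all negative), all genes with any count 17 (5 positive, 12 negative), at least 10 counts in every library 7 (all negative), all 18 libraries 3 (all negative, 1 of them among the 3 named), no replicate block 1 positive and 2 negative, and leaving out a mouse 0 to 4 in all, 0 positive and 0 to 4 negative. Against rIL-4, DESeq2 called 211 (81 positive, 130 negative), all 18 libraries 6, all genes with any count 2 and at least 10 counts 4 (all negative), and leaving out a mouse 0. The causes were not tested.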

Other observations

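Immediate early genes, which cell dissociation and sorting are known to raise, were higher in macrophages after rIL-13 in 11 of 13 tested (6 without mouse 7), with 0 higher in microglia and a median log2 fold change of -1.79. Fos, a subunit of the factor AP-1, had 3757, 5313 and 2925 normalised read counts in microglia and 30721, 50797 and 37337 in macrophages of mice 5, 6 and 7 (-3.35 ± 0.18, adjusted p = 3.75e-04 by edgeR). The phosphatase gene Dusp1 was at -2.52 ± 0.38 and Junb at -2.08 ± 0.31, and in each of these 3 genes every macrophage library exceeded every microglia library. The list had 12 of 13 genes higher in macrophages after PBS and 12 of 13 after rIL-4. Of 20 type I interferon response genes, 4 were higher in microglia (1 without mouse 7), 1 was higher in macrophages and 15 did not pass. Over all genes tested the shares were 15.4% and 10.0%. The median of the list was -0.18, and 11 of the 20 values were negative. After PBS 0 were higher in microglia and 9 in macrophages, where 23.5% and 16.7% of all genes were. After rIL-4 the counts were 5 and 0, beside 11.2% and 9.31%. Oas1a was higher in macrophages after rIL-13 (-1.19, adjusted p = 0.0116, and 0.0881 without mouse 7). Ifit3, an antiviral effector, had 691, 1403 and 1379.8 in microglia and 68.2, 207 and 259.6 in macrophages (2.79 ± 0.31, adjusted p = 0.00244).

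Among 15 growth factors tested 2 were higher in microglia and 5 in macrophages (2 without mouse 7), beside 15.4% and 10.0% of all genes tested. The count in microglia was thus near the share of all genes. Tgfb2 had 183, 109 and 456 normalised read counts in microglia and a single count in macrophages, a ratio of 665 with a 95% exact interval of 119 to 26295, and its call was lost without mouse 7 (adjusted p = 0.0511). Vascular and fibroblast cells are known to express it, their markers summed far higher in the microglia libraries, and their part was not tested. Insulin-like growth factor 1 (Igf1) had 8671, 9323 and 4906 in microglia and 6849.7, 1039 and 4952 in macrophages and did not pass (1.05 ± 0.66, adjusted p = 0.304). Of 22 integrin and adhesion genes 4 were higher in microglia (1 without mouse 7), again near the 15.4% of all genes, and 9 in macrophages. The tetraspanin gene Cd81 was at 2.41 ± 0.25, the beta 2 integrin Itgb2 at -1.88 ± 0.22 and the alpha 4 integrin Itga4 at -2.81 ± 0.38. Of 4 erythrocyte genes tested, whose copies share reads, edgeR called 0, while 1 was called higher in microglia by DESeq2 and by edgeR with at least 10 counts in every library.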
